A study of Homo sapiens with 6 samples.

Results

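The 47 genes described here belong to the Wnt and Notch pathways, 32 to Wnt and 15 to Notch, and were taken by symbol from a table of 18358 genes, which held all 47. They were measured by RNA-seq in 6 libraries of the ME180 line, which is established from a human squamous cancer of the cervix. One group of 3 libraries came from vector control cells, the other group of 3 from cells with sgVPS13C, whose genotype is given as VPS13C knockout. VPS13C encodes a lipid transfer protein of membrane contact sites. The cells of all 6 libraries had been exposed to cisplatin (2 µM, 48 h), a chemotherapy agent that damages DNA, and untreated cells do not enter any comparison. Whether replicates were grown separately is not stated, nor whether sgVPS13C cells were clonal or pooled. The p-values therefore weigh group differences only against the spread between libraries, which may be technical.

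Wnt proteins are secreted ligands that bind Frizzled receptors, with LRP5 or LRP6 as coreceptor in the β-catenin branch. Receptor binding there stops a complex of APC, AXIN1 and GSK3B from marking β-catenin for destruction, and β-catenin then acts with TCF and LEF factors on target genes, several of which feed back on the pathway. Notch receptors are cut when a Jagged or Delta-like ligand on a neighbouring cell binds them. The freed intracellular domain acts with RBPJ and Mastermind proteins on target genes, among them NRARP and some genes of the HES and HEY families. In stratified squamous epithelium Wnt signalling is known for its part in the basal, dividing layer, and Notch signalling for its part in the step to the layers above.

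The 6 libraries held 14774065 to 15799149 counts. VPS13C itself had 48.1, 30.1 and 35.0 CPM (counts scaled to library size with TMM factors) in vector libraries 1 to 3 and 28.6, 18.6 and 23.7 CPM in knockout libraries 1 to 3. All knockout libraries lay below all vector libraries, but the log2 fold change of −0.67 missed the threshold (edgeR quasi-likelihood adjusted p = 0.0513). It was called lower in 9 of 17 alternatives, among them DESeq2 (0.0144), limma-voom (0.0484) and the fit with the length trend removed (0.000354), within a span of 1.10e-06 to 0.144. Fits with a term for replicate number (replicate block) were also among the 9, although the numbers do not show a pairing. The low end here, and of each range of adjusted p for a single member below, came from the block with the length trend removed. The 9 squamous epithelial markers were all measured and summed to 12235 to 15829 CPM in vector cells and 19860 to 24387 CPM in knockout cells, with KRT5, KRT6A, KRT14 and PKP1 called higher, EPCAM called lower (log2 fold change −0.72) and KRT17, TP63, CDH1 and SFN not called. Of the markers of other cell types, 4 of 4 leukocyte markers summed to 0.129 to 0.425 CPM in every library. The 5 measured fibroblast markers summed to 37.0 to 44.2 and 47 to 50.3 CPM. COL1A1, which made up most of these sums, was not called, and DCN rose from 0.188 to 3.78 CPM in the mean. LUM, COL3A1 and PDGFRB were not tested. LUM was at or near 0, and PDGFRB had means of 0.168 and 0.156 CPM. COL3A1 had 2 counts in each vector library and 1, 0 and 0 counts in knockout libraries 1 to 3. The 3 endothelial markers summed to 7.80 to 8.13 and 21.7 to 24.7 CPM. The 2 that were tested went opposite ways: VWF rose (log2 fold change 1.97) and CDH5 fell from 2.27 to 0.152 CPM in the mean. PECAM1 had 1 count in each vector library and 0 in each knockout library, and was not tested. The part of these shifts in the results below was not tested, and in such bulk libraries fewer cells of a type and less RNA per cell cannot be told apart. Gene length was a further source of spread, within both groups: across genes, the Spearman correlation of a library's deviation with length was 0.328, −0.363 and −0.206 in vector libraries 1 to 3 and 0.398, −0.338 and 0.168 in knockout libraries 1 to 3.

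Of the 47 genes, 45 passed the filter on low counts, and 13 of these had higher and 6 lower counts in knockout cells (called at an adjusted p under 0.05). This was 42.2% of those tested, beside 35.1% of all 13717 genes tested (17.8% higher and 17.4% lower). The 2 genes under the filter were AXIN2 and DLL4. In the Wnt pathway 9 of 31 tested genes were higher and 5 lower (45.2% called), and in the Notch pathway 4 of 14 were higher and 1 lower (35.7% called), the latter close to the share of all genes. All knockout libraries were higher than all vector libraries for 14 of the 45 and lower for 9, beside 24.5% and 24% of all genes. At a change of at least 2-fold, 11 of the 45 were called, against 1680 of all 13717 genes tested (12.2%). The 47 genes were chosen with earlier results of these data known. Their shares and medians beside all genes therefore do not serve as a test. The median log2 fold change was 0.04 over the tested Wnt genes, 0.16 over the Notch genes and 0.00395 over all genes. With the trend on gene length removed, 8 Wnt genes in place of 5 were lower, and 46.7% of all genes were called (22.5% higher and 24.2% lower); with a replicate block 57.9% were. Over all genes, 2440 were higher and 2381 lower. These numbers were 1582 and 1521 without vector replicate 3 and 1551 and 1475 without knockout replicate 3.

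**Figure D1:**
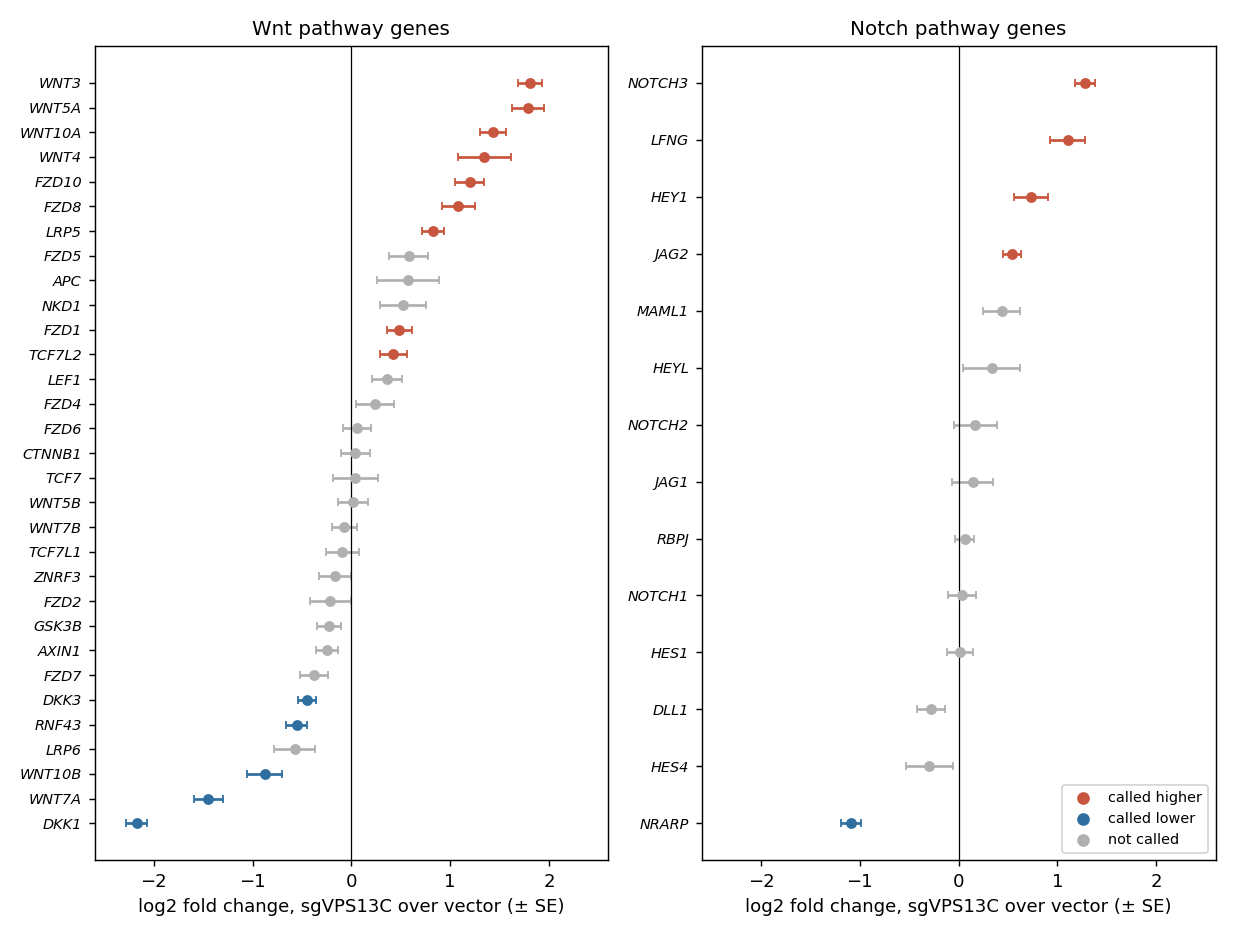
Log2 fold change of each tested Wnt gene (left) and Notch gene (right), knockout over vector, with the standard error as a bar, ordered by size. Red points were called higher, blue points lower and grey points were not called; DKK1 lay lowest at −2.17 and WNT3 highest at 1.81.

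Wnt ligands changed in both directions: of 8 genes, 4 rose, 2 fell and 2 were not called (75% called, beside 35.1% of all genes). WNT3 (chromosome 17, 46762506 to 46818692 in GRCh38), a ligand of the β-catenin branch, had 8.49, 7.52 and 9.33 CPM in vector cells and 29.5, 28.4 and 31.8 CPM in knockout cells. All knockout libraries stood above all vector libraries, by 3.54-fold in the mean (8.45 ± 0.906 to 29.9 ± 1.73 CPM, SD, n = 3 each), with a log2 fold change of 1.81 ± 0.12 (SE; edgeR quasi-likelihood adjusted p = 9.06e-05). WNT5A (chromosome 3, 55465715 to 55505263), best known as a ligand that acts without β-catenin, through receptors such as ROR2, rose from 26.7, 20.7 and 21.1 CPM to 88.8, 65.4 and 83.0 CPM. The lowest knockout library was far above the highest vector library, with a log2 fold change of 1.79 ± 0.16 (SE; edgeR quasi-likelihood adjusted p = 0.000318).

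WNT10A (chromosome 2, 218874116 to 218893928), a ligand of skin, hair and teeth, rose from 37.3, 45.4 and 41.3 CPM to 98.0, 124 and 113 CPM. WNT4 (chromosome 1, 22117313 to 22143097) had 13.9, 24.6 and 23.6 CPM in vector cells and 40.9, 67.6 and 49.5 CPM in knockout cells. In both genes the groups did not overlap, although the libraries of WNT4 were spread more widely (52.7 ± 13.7 CPM in the knockout group, SD, n = 3). The log2 fold changes were 1.43 for WNT10A and 1.34 for WNT4, with standard errors of 0.13 and 0.27 (edgeR quasi-likelihood adjusted p = 0.000302 and 0.00806).

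The ligands that fell were WNT7A and WNT10B. WNT7A (chromosome 3, 13816258 to 13880071), an epithelial ligand, had 10.9, 14.3 and 12.2 CPM in vector cells and 4.34, 4.68 and 4.46 CPM in knockout cells. The 3 knockout values were nearly equal and all below the vector values, with a log2 fold change of −1.45 ± 0.14 (SE; edgeR quasi-likelihood adjusted p = 0.000404). WNT10B (chromosome 12, 48965340 to 48971735), a close relative of WNT10A, had 5.86, 6.35 and 6.03 CPM and then 2.56, 3.97 and 3.23 CPM. Again the groups did not overlap, with a log2 fold change of −0.88 ± 0.18 (SE; edgeR quasi-likelihood adjusted p = 0.00831). WNT10A and WNT10B thus lay on opposite sides of 0.

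Per length, in FPKM (fragments scaled for gene length and library size), the level of WNT7B stood above all other ligands in both groups, with means of 114 in the vector and 106 in the knockout libraries. WNT7B, another epithelial ligand, was not called: its 334, 426 and 424 CPM in the vector libraries overlapped with 371, 406 and 350 CPM in the knockout libraries (log2 fold change −0.07 ± 0.13, SE). WNT10A came next in level in both groups, with a mean FPKM of 23.7 in the vector and 62.0 in the knockout libraries. WNT4 (6.92), WNT7A (5.46) and WNT5A (4.20) followed in mean FPKM in the vector libraries. In the knockout libraries the order below WNT10A was WNT4 (15.9), WNT5A (14.3) and WNT3 (9.77), with WNT7A at 1.93. WNT5B, also a ligand outside the β-catenin branch, stayed at 3.62 to 4.41 CPM in all libraries (log2 fold change 0.01 ± 0.15, SE).

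**Figure D2:**
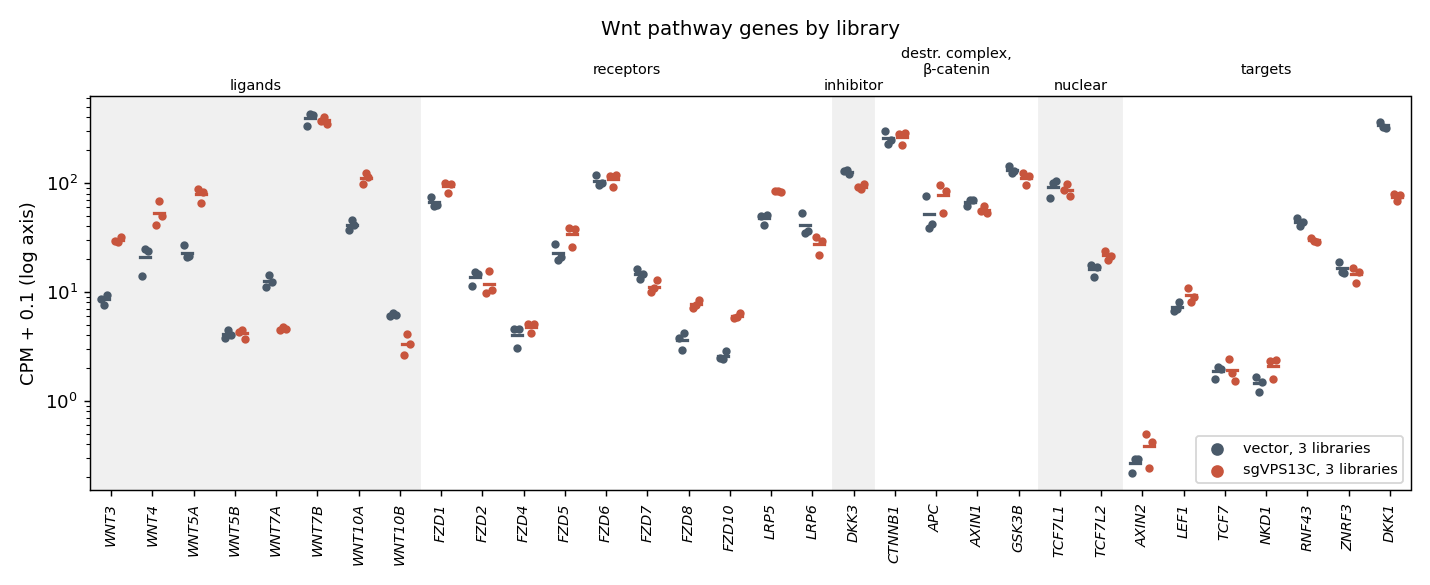
CPM of the 32 Wnt pathway genes in each library, ordered by role, on a log axis after adding 0.1; points are libraries, bars group means, dark grey for vector and red for knockout. The ligands WNT3, WNT4, WNT5A and WNT10A stand higher and WNT7A, WNT10B, DKK3, RNF43 and DKK1 lower in the knockout libraries, with no overlap, while WNT7B and CTNNB1 overlap.

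Among 10 Wnt receptors and coreceptors 4 rose and 0 fell by the edgeR quasi-likelihood test. That was 40% called, near the 35.1% of all genes. At an unadjusted p under 0.05, 2 were lower (LRP6 and FZD7), and DESeq2 called 1 of them, LRP6. LRP5 (chromosome 11, 68298412 to 68449275), a coreceptor, had 49.4, 41.2 and 51.2 CPM in vector cells and 84.6, 84.4 and 83.3 CPM in knockout cells. The groups were clearly apart, with a log2 fold change of 0.83 ± 0.11 (SE; edgeR quasi-likelihood adjusted p = 0.00143). The 40 nearest genes with at least 8 CPM had a median log2 fold change of 0.48, so LRP5 lay among genes that were higher as a group. Its partner LRP6, which has the same role, had 52.5, 34.7 and 36.3 CPM and then 32.0, 21.7 and 29.1 CPM. Its direction was the opposite, the groups did not overlap, and the log2 fold change of −0.57 ± 0.21 (SE) was not called (edgeR quasi-likelihood adjusted p = 0.0727). LRP6 passed with the length trend removed and by DESeq2 (adjusted p = 0.000805 and 0.0315), over a range of 5.70e-06 to 0.156 in all alternatives. Whether the log2 fold changes of LRP5 and LRP6 differ was not tested.

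The Frizzled genes FZD8 and FZD10, which encode receptors for Wnt ligands, rose from low levels. FZD8 had 3.65, 2.85 and 4.06 CPM in vector cells and 7.03, 7.51 and 8.28 CPM in knockout cells. FZD10 had 2.39, 2.33 and 2.79 CPM and then 5.65, 5.81 and 6.27 CPM. For both genes every knockout library was higher, with log2 fold changes of 1.08 and 1.20 and standard errors of 0.17 and 0.15 (edgeR quasi-likelihood adjusted p = 0.00249 and 0.000934). FZD1, at a higher level, had 74.7, 60.8 and 63.0 CPM and then 99.7, 81.1 and 97.4 CPM, with a log2 fold change of 0.49 ± 0.13 (SE; edgeR quasi-likelihood adjusted p = 0.0242). The groups of FZD1 did not overlap, but its call was lost without vector replicates 2 or 3 or knockout replicates 1 or 3 (edgeR adjusted p = 0.0844, 0.101, 0.0936 and 0.112). It was also lost with library size only and on log2(FPKM + 1), with adjusted p-values of 0.000174 to 0.112 in the alternatives.

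FZD6 had the highest level per length among the receptors, with a mean FPKM of 33.5 in the vector and 34.4 in the knockout libraries, and was not called (log2 fold change 0.06 ± 0.14, SE). FZD5 had 27.2, 19.5 and 20.7 CPM and then 38.1, 25.5 and 37.4 CPM, and the groups overlapped. Its log2 fold change of 0.58 ± 0.20 (SE) missed the threshold (edgeR quasi-likelihood adjusted p = 0.0587), but passed without vector replicate 1 (0.0226), without knockout replicate 2 (0.0118), by DESeq2 (0.0269) and with the length trend removed (0.00726), over a range of 0.000276 to 0.205. FZD7 was lower in all knockout libraries (16.0, 13.03 and 14.5 CPM, then 9.92, 10.7 and 12.7 CPM; log2 fold change −0.38 ± 0.14, SE) and was not called, but passed with the length trend removed (edgeR quasi-likelihood adjusted p = 0.0293), over a range of 0.00685 to 0.202. FZD2 and FZD4, at 9.66 to 15.3 and 2.98 to 4.99 CPM, overlapped between the groups.

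Downstream of the receptors no gene of the 4 that encode β-catenin and its destruction complex was called by edgeR, DESeq2 or limma-voom. In edgeR 0 of the 4 had an unadjusted p under 0.05, and 35.1% of all genes were called. CTNNB1, the β-catenin gene and the most abundant of the 4 per length (mean FPKM 85.1 and 83.9), had 300.2, 226 and 245 CPM and then 282, 223 and 288 CPM. The groups overlapped fully, with a log2 fold change of 0.04 ± 0.15 (SE). AXIN1, the scaffold of the complex, and GSK3B, its kinase, had log2 fold changes of −0.25 and −0.23 with standard errors of 0.11 and 0.12. GSK3B was called with the length trend removed (edgeR quasi-likelihood adjusted p = 0.00784, over a range of 0.000719 to 0.397). APC had 75.8, 38.3 and 41.9 CPM and then 94.7, 52.5 and 85.1 CPM, so that libraries of 1 group differed more from each other than the group means did. Its log2 fold change of 0.57 had a standard error of 0.32, and without vector replicate 1 it was 0.94 and passed (edgeR quasi-likelihood adjusted p = 0.0224, over a range of 0.000424 to 0.467).

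Of the TCF factors that are not listed as targets, TCF7L2 rose by a small amount and TCF7L1 was not called. TCF7L2, a partner of β-catenin, had 17.5, 13.6 and 16.9 CPM and then 23.6, 19.6 and 21.4 CPM. The groups did not overlap, and the log2 fold change of 0.42 ± 0.14 (SE) only just passed (edgeR quasi-likelihood adjusted p = 0.0473). The call was lost without vector replicates 2 or 3 and without knockout replicates 1 or 3 (edgeR adjusted p = 0.141, 0.105, 0.167 and 0.146). It was also lost with RLE factors, library size only, no low-count filter and on log2(FPKM + 1), with a range of 0.00260 to 0.167. TCF7L1, mainly a repressor of Wnt targets, had overlapping groups at 72.3 to 104 CPM (log2 fold change −0.09 ± 0.17, SE).

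The secreted antagonists DKK1 and DKK3 were both lower. DKK1 (chromosome 10, 52314281 to 52317657), a secreted antagonist that binds LRP5 and LRP6 and is itself a target of the pathway, had 364, 327 and 319.8 CPM in vector cells and 78.6, 68.8 and 76.7 CPM in knockout cells. This was the largest change among the 45 tested genes: the vector mean of 337 ± 24.0 CPM was 4.51 times the knockout mean of 74.7 ± 5.16 CPM (SD, n = 3 each). The log2 fold change was −2.17 ± 0.10 (SE; edgeR quasi-likelihood adjusted p = 3.04e-05) and stayed between −2.22 and −2.12 over the alternatives. DKK3, a relative whose action on LRP5 and LRP6 is less clear, had 128, 130.3 and 121 CPM and then 91.3, 88.3 and 97.4 CPM. The groups did not overlap, with a log2 fold change of −0.45 ± 0.09 (SE; edgeR quasi-likelihood adjusted p = 0.00742).

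By edgeR, the 7 listed Wnt targets, DKK1 among them, gave 0 that rose, 2 that fell, 4 not called and 1 under the filter. At an unadjusted p under 0.05 and by DESeq2 also 0 rose. Of the 6 tested, 33.3% were called, near the 35.1% of all genes. RNF43, which encodes a ubiquitin ligase that removes Frizzled receptors, was the other target that fell, from 47.4, 40.2 and 43.5 CPM to 31.2, 29.4 and 28.6 CPM. The groups did not overlap (log2 fold change −0.55 ± 0.11, SE, edgeR quasi-likelihood adjusted p = 0.00658). ZNRF3, a ubiquitin ligase with the same role, was not called, at 14.9 to 18.9 CPM in the vector and 12.1 to 16.6 CPM in the knockout libraries.

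AXIN2, a feedback scaffold widely used as a readout of β-catenin signalling, had 2, 3 and 3 counts in the vector libraries and 6, 2 and 5 counts in the knockout libraries. At this depth, 0.120 to 0.394 CPM, it did not pass the filter, and in the fit without a filter no difference was detectable (edgeR quasi-likelihood adjusted p = 0.377). LEF1, both a nuclear partner of β-catenin and a target, had 6.52, 6.93 and 7.93 CPM and then 10.7, 7.94 and 8.92 CPM. Every knockout library was higher, the closest pair by very little, and the log2 fold change of 0.36 ± 0.15 (SE) was not called (edgeR quasi-likelihood adjusted p = 0.112). TCF7 and NKD1, a T-cell factor and a feedback inhibitor that binds Dishevelled, lay at 1.42 to 2.30 and 1.10 to 2.26 CPM with overlapping groups.

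In the Notch pathway, the ligand JAG2 rose and the other 2 tested ligands were not called (33.3% called, near the 35.1% of all genes). JAG2 (chromosome 14, 105140995 to 105168776), a ligand of the Jagged type, had 236, 257 and 254 CPM in vector cells and 355, 383 and 351 CPM in knockout cells. The groups were well apart, from 249 ± 11.1 to 363 ± 17.5 CPM (SD, n = 3 each), with a log2 fold change of 0.54 ± 0.09 (SE; edgeR quasi-likelihood adjusted p = 0.00410). Per length it was also the ligand with the highest level, with a mean FPKM of 46.1 and 65.6, against 18.6 and 20 for JAG1.

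JAG1, the other Jagged ligand, overlapped between the groups at 89.3 to 132 and 90.2 to 129 CPM (log2 fold change 0.14 ± 0.20, SE). DLL1, a Delta-like ligand, had 25.0, 19.2 and 19.0 CPM and then 18.0, 16.4 and 17.5 CPM. All knockout libraries were lower, but the log2 fold change of −0.28 ± 0.14 (SE) was not called (edgeR quasi-likelihood adjusted p = 0.160). DLL4, a Delta-like ligand best known from blood vessels, had 16, 9 and 13 counts and then 0, 5 and 7 counts, and did not pass the filter (edgeR quasi-likelihood adjusted p = 0.129 in the fit without one). Its knockout libraries were all lower, and the 0 of knockout replicate 1 allows up to 3 counts, or 0.197 CPM, by counting error alone.

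Of the 3 Notch receptors, NOTCH3 alone was called (33.3%, near the 35.1% of all genes). NOTCH3 (chromosome 19, 15159038 to 15200995) had 107, 91.6 and 97.0 CPM in vector cells and 248.6, 227 and 242.5 CPM in knockout cells. It rose 2.43-fold, from 98.5 ± 7.77 to 239 ± 11 CPM (SD, n = 3 each), with no overlap and a log2 fold change of 1.28 ± 0.10 (SE; edgeR quasi-likelihood adjusted p = 0.000149). NOTCH1, the main receptor of squamous epithelium, had 338, 259.9 and 289 CPM and then 347, 265 and 297 CPM, so the groups overlapped (log2 fold change 0.04 ± 0.14, SE). NOTCH2 overlapped as well at 98.1 to 155 and 106 to 166 CPM (log2 fold change 0.17 ± 0.22, SE), and reads it shares with its near-identical NOTCH2NL copies make its count uncertain. The mean FPKM in the vector libraries ran from NOTCH1 (34.5) to NOTCH3 (12.7) and NOTCH2 (11.1). In the knockout libraries NOTCH3 (30.2) stood close to NOTCH1 (34.4), with NOTCH2 at 12.2.

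LFNG (chromosome 7, 2512529 to 2529177), the Fringe enzyme that adds sugars to Notch receptors and shifts their preference among ligands, had 6.76, 9.85 and 7.74 CPM and then 16.3, 20.4 and 16.0 CPM. All knockout libraries were higher, with a log2 fold change of 1.10 ± 0.18 (SE; edgeR quasi-likelihood adjusted p = 0.00324). RBPJ, the DNA-binding partner of Notch, stayed at 27.0 to 30.8 CPM in all libraries (log2 fold change 0.06 ± 0.10, SE). MAML1, a Mastermind coactivator, overlapped between the groups (52.7, 35.5 and 40.6 CPM, then 65.8, 47.3 and 61.3 CPM), and its log2 fold change of 0.44 was not called (edgeR quasi-likelihood adjusted p = 0.114). It passed without vector replicate 1 (0.0277), without knockout replicate 2 (0.0419) and with the length trend removed (0.0214), over a range of 0.000609 to 0.313.

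**Figure D3:**
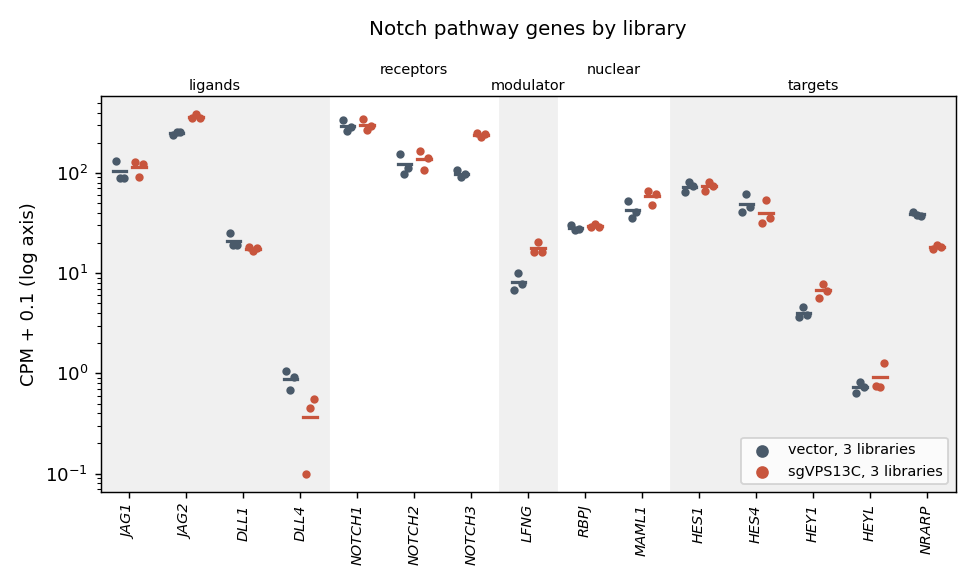
CPM of the 15 Notch pathway genes in each library, ordered by role, on a log axis after adding 0.1; points are libraries, bars group means, dark grey for vector and red for knockout. JAG2, NOTCH3, LFNG and HEY1 stand higher and NRARP lower in the knockout libraries with no overlap, while NOTCH1, RBPJ and HES1 overlap; the lowest DLL4 point is a count of 0.

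Of the 5 genes listed as Notch targets 1 rose, 1 fell and 3 were not called (40% called, near the 35.1% of all genes). NRARP (chromosome 9, 137299631 to 137302271), a target whose small protein binds the Notch complex and limits it, had 40.8, 38.0 and 37.3 CPM in vector cells and 17.3, 18.9 and 18.1 CPM in knockout cells. The vector mean was 2.14 times the knockout mean (38.7 ± 1.87 and 18.1 ± 0.826 CPM, SD, n = 3 each), with a log2 fold change of −1.09 ± 0.10 (SE; edgeR quasi-likelihood adjusted p = 0.000278). The median of its 40 nearest measured neighbours was −0.33, so it lay among genes that were lower as a group. HEY1, a repressor of the HEY family, had 3.59, 4.47 and 3.74 CPM and then 5.58, 7.73 and 6.53 CPM. The groups did not overlap (log2 fold change 0.73 ± 0.17, SE, edgeR quasi-likelihood adjusted p = 0.0152), but the call was lost without vector replicate 3 or knockout replicate 3 (edgeR adjusted p = 0.0645 and 0.0563, over a range of 0.000572 to 0.0645).

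HES1, the best known target, had overlapping groups, at 64.4, 81.3 and 73.6 CPM in the vector and 66.2, 81.4 and 73.6 CPM in the knockout group (log2 fold change 0.01 ± 0.13, SE). HES4, a close relative, had 40.2, 61.8 and 46.1 CPM and then 31.8, 53.0 and 35.6 CPM, with overlapping groups (log2 fold change −0.30 ± 0.24, SE). Per length both lay above the other targets, with a mean FPKM in the vector libraries of 55.9 for HES1 and 62.3 for HES4, against 16.5 for NRARP. HEYL, a further HEY gene, was near the limit of detection at 0.538 to 1.16 CPM.

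The promoters of 3 of these targets that were not called are shown beside that of NRARP, which was, because RBPJ binds such promoters through the core GTGGGAA or its reverse complement TTCCCAC. HEY1, the other called target, had no promoter entry and is not shown. Each is the 250 bases before the RefSeq start in GRCh38.p14, 5′ to 3′ on the gene's strand, with either form of the core in capitals. HES1 is chr3:194135898-194136147 on the plus strand, and HES4 chr1:1000098-1000347, HEYL chr1:39639644-39639893 and NRARP chr9:137302272-137302521 are on the minus strand.
HES1: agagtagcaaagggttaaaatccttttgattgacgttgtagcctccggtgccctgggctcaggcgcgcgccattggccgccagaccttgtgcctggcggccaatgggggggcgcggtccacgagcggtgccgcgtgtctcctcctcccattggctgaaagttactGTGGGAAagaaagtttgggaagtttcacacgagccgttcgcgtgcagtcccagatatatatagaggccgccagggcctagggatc
HES4: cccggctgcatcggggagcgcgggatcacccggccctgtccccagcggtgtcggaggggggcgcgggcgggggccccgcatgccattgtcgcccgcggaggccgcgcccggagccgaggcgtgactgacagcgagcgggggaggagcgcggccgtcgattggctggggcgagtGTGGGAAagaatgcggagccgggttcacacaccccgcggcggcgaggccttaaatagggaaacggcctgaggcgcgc
HEYL: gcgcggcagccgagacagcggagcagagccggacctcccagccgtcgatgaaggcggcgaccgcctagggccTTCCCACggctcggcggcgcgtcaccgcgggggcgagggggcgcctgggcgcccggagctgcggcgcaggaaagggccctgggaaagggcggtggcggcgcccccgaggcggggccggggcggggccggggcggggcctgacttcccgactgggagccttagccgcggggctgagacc
NRARP: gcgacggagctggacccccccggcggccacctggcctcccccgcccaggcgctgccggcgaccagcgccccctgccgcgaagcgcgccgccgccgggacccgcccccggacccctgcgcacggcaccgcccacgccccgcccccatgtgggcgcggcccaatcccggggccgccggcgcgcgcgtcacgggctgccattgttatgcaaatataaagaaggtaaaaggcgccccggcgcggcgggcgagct
The core began 85 bases before the start in HES1, 77 in HES4 and 178 in HEYL, and in NRARP these letters were not in this window. RefSeq promoters of 250 bases before to 50 after the start were found for 34 of the 47 genes, some with more than 1 start, RBPJ among them. Of 18 promoters of Notch genes 4 held the core (22.2%), of 28 of Wnt genes 1 (3.57%), and for all 35116 promoters of RefSeq the share was 6.25%. The 4 belonged to HES1, HES4 and HEYL, which are listed as Notch targets, and to 1 start of RBPJ. The Notch share therefore does not serve as a test. The TCF and LEF core, ATCAAAG or CTTTGAT, stood in 0 of the 28 Wnt promoters, in 1 of the 18 Notch promoters and in 2.62% of all. A match is a string of letters, not a measured site.

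Further genes of both pathways were read from lists made by pathway role. These lists were chosen with earlier results of these data known, so their shares and medians beside all genes do not serve as a test. Of 59 tested Wnt genes outside the 32, 17 rose and 7 fell (40.7% called, beside 35.1% of all genes), with a median log2 fold change of 0.18 against 0.00395 over all genes. APCDD1, a membrane inhibitor of Wnt signalling and a target, rose from 10.6, 10.5 and 10.98 CPM to 29.9, 31.2 and 30.5 CPM. SOSTDC1, a secreted antagonist of Wnt and BMP signalling, rose from 0.299, 0.583 and 0.571 CPM to 3.94, 3.47 and 3.69 CPM. For both the groups were far apart, with log2 fold changes of 1.50 and 2.65 (edgeR quasi-likelihood adjusted p = 7.93e-05 and 0.000249).

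ROR2, a receptor for WNT5A, fell from 24.8, 27.9 and 25.0 CPM to 8.21, 9.71 and 9.25 CPM (log2 fold change −1.50, edgeR quasi-likelihood adjusted p = 0.000154), while WNT5A rose. NKD2, a relative of NKD1, fell from 4.02 ± 0.746 to 0.966 ± 0.241 CPM (SD, n = 3 each; log2 fold change −1.93). TLE3 and TLE4, corepressors that bind TCF factors, rose with log2 fold changes of 0.82 and 1.68, TLE4 from 13.01 ± 2.12 to 41.9 ± 6.18 CPM. VANGL2, of the planar polarity branch, rose at 1.23, and BAMBI, a decoy receptor of TGF-β signalling that is also a Wnt target, at 0.71. These 8 genes were those with the smallest p and kept their calls under all alternatives that tested them.

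Some further genes are named after their values were seen, so they do not stand for their groups. Of 8 tested receptors and coreceptors on this list 1 rose (KREMEN1), 1 fell (ROR2) and 6 were not called. That was 25% called, beside 35.1% of all genes. WLS, the carrier that takes Wnt proteins to the cell surface, rose from 112 ± 4.56 to 160.2 ± 9.73 CPM, and PORCN, which attaches the lipid they need, from 5.56 ± 0.225 to 10.6 ± 1.81 CPM (SD, n = 3 each). PORCN lay on chromosome X among genes with a median of 0.49. LGR4, a receptor for R-spondins, rose from 83.0, 48.5 and 51.3 CPM to 189, 130.2 and 194 CPM (log2 fold change 1.49, edgeR quasi-likelihood adjusted p = 0.00400), with the groups apart although each was widely spread, while LGR6, of the same family, was not called (0.14). The called rises among the tested ligands outside the 8 were WNT2B (1.10) and WNT9B (1.65), the latter at under 1 CPM; WNT9A fell (−0.66) among neighbours with a median of −0.82. The call of WNT9B was lost without vector replicate 2 or knockout replicate 3 (edgeR adjusted p = 0.0538 and 0.0629). MYC, a target of many pathways, fell from 304 ± 48.6 to 151 ± 22.7 CPM (log2 fold change −1.005), and CCND1, likewise, was not called (0.16). With the length trend removed, 12 of the 59 tested genes of the list in place of 7 were lower, beside 24.2% in place of 17.4% of all genes.

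**Figure D4:**
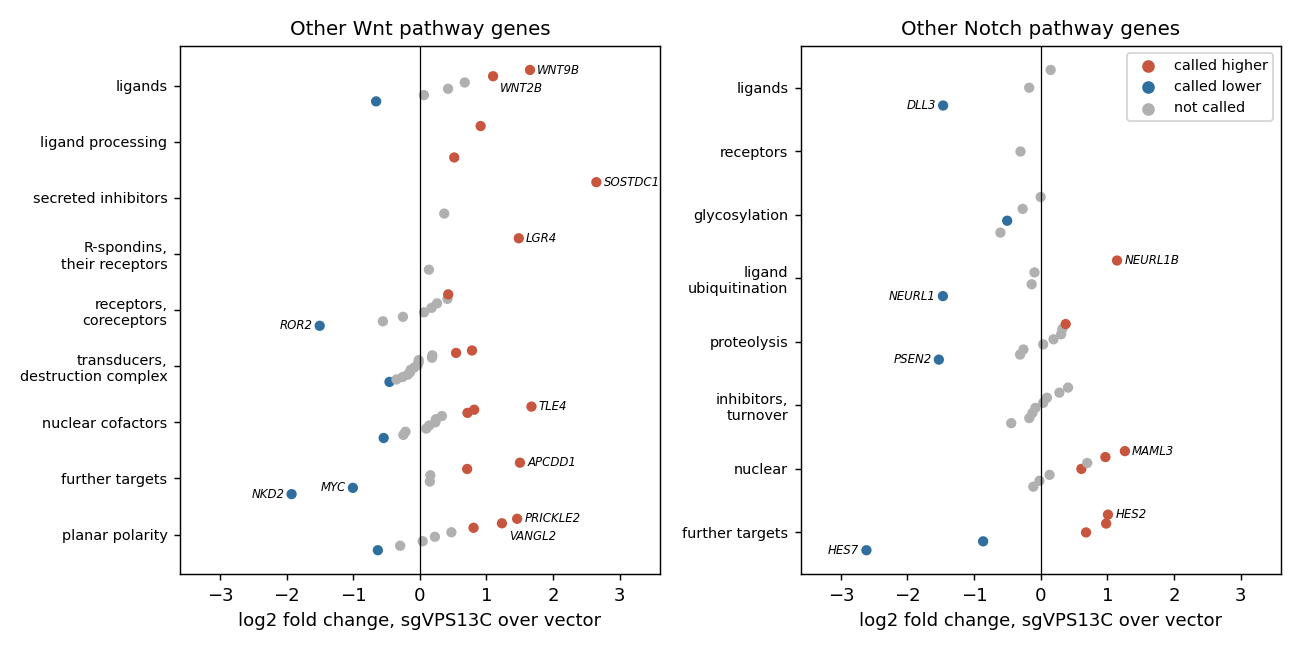
Log2 fold change, knockout over vector, of the tested Wnt genes (left) and Notch genes (right) outside the 47, one point a gene, in rows by role; red was called higher, blue lower and grey not called, and genes changed at least 2-fold are named. SOSTDC1 lies highest at 2.65 and HES7 lowest at −2.62.

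Of 40 tested Notch genes outside the 15, 8 rose and 6 fell (35.0% called, near the 35.1% of all genes), with a median of −0.01. Without vector replicate 3 or knockout replicate 3, 5 in place of 8 rose, and under the stricter filter on low counts 5 rose and 2 fell. NEURL1B and NEURL1, which encode ubiquitin ligases of the Neuralized family that act on Notch ligands, went opposite ways. NEURL1B rose from 41.3, 39.2 and 39.6 CPM to 88.5, 83.7 and 94.1 CPM, and NEURL1 fell from 3.47, 4.60 and 5.27 CPM to 1.51, 1.84 and 1.23 CPM (log2 fold changes 1.15 and −1.47, edgeR quasi-likelihood adjusted p = 0.000203 and 0.00294). In both genes the groups were apart, and per length NEURL1B was the more abundant, with a mean FPKM over all libraries of 11.5 against 0.755.

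PSEN2, a subunit of the enzyme that cuts Notch, fell from 4.75 ± 0.447 to 1.56 ± 0.145 CPM (SD, n = 3 each; log2 fold change −1.53) among neighbours with a median of −0.42. MAML3, a Mastermind coactivator, rose with a log2 fold change of 1.26. POGLUT1, which adds glucose to Notch receptors, fell (−0.50), also among lower neighbours (−0.37). Of 8 tested genes that limit the pathway or turn it over, 0 were called by edgeR, beside 35.1% of all genes. In edgeR 2 had an unadjusted p under 0.05 (FBXW7 and DTX4), and DESeq2 called FBXW7.

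All 5 further HES and HEY genes on the list, which was chosen with earlier results known, were called, beside 35.1% of all genes. Of these 5, 3 were higher and 2 lower. They are read as members of a gene family, and whether each responds to Notch in these cells was not tested. HES2, a repressor of the HES family, rose from 55.6, 55.0 and 59.1 CPM to 108, 114 and 120 CPM (log2 fold change 1.01, edgeR quasi-likelihood adjusted p = 0.000288). HES7, a target known from the segmentation clock of the embryo, fell from 10.6, 13.9 and 12.9 CPM to 1.18, 2.34 and 2.26 CPM (log2 fold change −2.62, edgeR quasi-likelihood adjusted p = 0.000347). The groups of both genes were far apart, in opposite directions. HEY2, HES5 and HES6, named after their values were seen, had log2 fold changes of 0.68, 0.98 and −0.86. HES5 lost its call without vector replicates 1 or 3 or knockout replicates 2 or 3 (edgeR adjusted p = 0.0599, 0.0827, 0.0551 and 0.0737). The call of HES6, which acts against HES1, was lost without vector replicates 2 or 3 or knockout replicates 1 or 3 (edgeR adjusted p = 0.0668, 0.0712, 0.0731 and 0.0933). The family as listed thus held rises (HES2, HES5, HEY1 and HEY2), falls (HES6 and HES7) and genes not called (HES1, HES4 and HEYL), with the exceptions given for HEY1, HES5 and HES6 without single libraries.

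At the level of transcripts, 104 of 186 RefSeq transcripts of the 47 genes passed the filter, and 4 were called higher and 2 lower, against 2.25% of all 40948 transcripts tested (1.17% higher and 1.08% lower). They belonged to WNT3, WNT10A, LRP5 and NOTCH3 (higher) and to DKK1 and NRARP (lower), each with groups that did not overlap and in the direction of its gene. For NOTCH3 the transcript called was the predicted XM_005259924.4, which went from 61.1, 69.3 and 65.6 CPM to 157, 181 and 161 CPM, a rise in every library (log2 fold change 1.35, edgeR quasi-likelihood adjusted p = 0.00773). The curated NM_000435.3 had means of 34.4 and 75.2 CPM with overlapping groups and was not called. WNT5A had 2 tested transcripts, NM_001377271.1 and NM_003392.5, with means of 7.98 and 14.0 CPM in the vector and 36.6 and 39.9 CPM in the knockout libraries; neither was called. Transcript calls were fragile: 0 were called higher without vector replicates 2 or 3 or knockout replicates 1 or 3, 1 without knockout replicate 2, and 0 were called lower without knockout replicate 3 and 1 without each other library.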

How the data were processed

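RNA-seq counts were analysed for 3 vector and 3 sgVPS13C libraries of cisplatin-treated ME180 cells, as grouped by the sample titles. Reads were single-end and 50 bases long, per the labels' protocols, and the build was hg38, per the submitters' processing notes. No aligner, counter or strand setting is named in the sources used here. Whether reads of overlapping antisense genes were told apart is therefore not known. The authors deposited expected counts (estimated counts, fractional where reads were shared), which were rounded to whole numbers for every test. The authors' FPKM, a length- and depth-scaled value, gave the levels compared between genes and, with the counts, gene lengths. TPM values, a normalized signal and group means were also deposited by the authors and were not used.

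Genes and, separately, transcripts passing filterByExpr at a minimum count of 10 were tested over the whole table, after TMM scaling, by edgeR 4.0.16 quasi-likelihood F-tests (robust, prior count 2) in R 4.3.3, knockout against vector. A Benjamini-Hochberg adjusted p under 0.05 over all genes tested counted as called. Standard errors (SE) were derived as |log2 fold change| divided by √F. The alternatives tried were DESeq2 1.42.0, limma-voom, scaling by library size alone, by RLE or by upper quartiles, and limma 3.58.1 on log2(FPKM + 1), no filter, a filter of 10 CPM in 3 libraries, a replicate block, removal of each library's loess trend on gene length (span 0.4; lengths for 96.9% of tested genes), both together, and leaving out each library. The fit was tested on simulated counts, drawn independently for each library. They held no trend on gene length, so that test does not cover this source of spread.

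The 47 members and all lists were chosen with earlier results of these data known. Every member is accounted for; called members, and members not called with at least 20 CPM or with groups that do not overlap, are given singly, and up to 8 called genes by smallest p from each list of other pathway genes. Some results on single genes of these lists are not reported here. Of the Wnt list 1 gene, and of the fibroblast markers 1 gene, were not analysed here. Neighbour medians are over the 40 nearest genes with at least 8 CPM, by RefSeq GRCh38.p14 positions; 18200 of 18358 gene IDs were found there. Promoter sequences are from RefSeq. Counting limits cover counting error only. Figures were drawn with matplotlib 3.10.9.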

Additional observations from a re-analysis of the deposited data

How the results depend on the processing

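Of 19 called Wnt and Notch genes 16 kept their call under all alternatives that tested them; FZD1, TCF7L2 and HEY1 did not. Over 755 values of the 45 tested members in the alternatives, 0 changed the direction of a call, 16 lost a call and 33 gained one. The median of all genes moved by at most 0.03 on the log2 scale with other scalings. The cause of the shifts below was not tested, except that a stricter filter tests fewer genes and leaving out a library fits fewer samples.

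Replicate numbers are shared by the labels of both groups, but samples with the same number did not all deviate together (correlations of 0.651, 0.681 and −0.215 for numbers 1 to 3), and vector replicate 3 correlated best with knockout replicate 2 (0.425), so the numbers do not show a pairing. With a replicate block, 10 of 26 members not called gained a call, while the share of all genes called went from 35.1% to 57.9%. The members were FZD5, APC, LEF1 and MAML1 (higher), and FZD7, LRP6, AXIN1, GSK3B, DLL1 and HES4 (lower). In that fit 9 Wnt and 3 Notch members were lower, 13 other Wnt and 10 other Notch genes were lower, 4049 genes were higher and 3890 lower, and 1 member transcript was lower. With the replicate block and the gene length trend removed together, 10 Wnt and 3 Notch members and 15 other Wnt and 12 other Notch genes were lower, 13 other Notch genes were higher, and 4088 genes were higher and 4380 lower.

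With the gene length trend removed alone, 8 of 31 tested Wnt members and 12 of 59 other tested Wnt genes were lower, beside 24.2% of all genes. Under the stricter low-count filter 5 other Notch genes were higher and 2 lower. Leaving out 1 library at a time gave 5 to 9 other Notch genes higher, 1551 to 2552 genes higher and 1475 to 2491 lower, 0 to 4 member transcripts higher and 0 to 1 lower. AXIN2 and DLL4 did not pass the low-count filter and were not called without it.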
